A study of Mus musculus with 6 samples.

Results

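The genes described here are the receptors and co-receptors of TGFβ at the cell surface. They were taken by name and are 5 of the 32285 features in the deposited count matrices. Tgfbr2, the type II receptor, lies on chromosome 9 (116084293 to 116175360, minus strand, ENSMUSG00000032440). Tgfbr1, the type I receptor also called ALK5, lies on chromosome 4 (47353222 to 47414931, plus strand, ENSMUSG00000007613). Acvrl1, a type I receptor also called ALK1, lies on chromosome 15 (101128522 to 101145336, plus strand, ENSMUSG00000000530). Tgfbr3, the co-receptor betaglycan, lies on chromosome 5 (107106570 to 107289629, minus strand, ENSMUSG00000029287), and Eng, the co-receptor endoglin, on chromosome 2 (32646595 to 32682669, plus strand, ENSMUSG00000026814). Coordinates are those of GRCm38.

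Nuclei were profiled from cortical lesions, with residual brain parenchyma, in mice on a C57BL/6 background. The lesions were made by photothrombosis (PT), in which a light-activated dye closes surface vessels. Ctrl mice were wild-type with no treatment listed, ADWA11 mice were wild-type and received an antibody that blocks integrin αvβ8 from the day of injury and weekly after it, and Tgfbr2-cKO mice (cKO below) were Col1a2(creER); Tgfbr2(flox), in which tamoxifen activates a Cre driven by the Col1a2 promoter of collagen-producing cells. Each condition was sampled at 7 and 21 days post injury (dpi) in 1 library that combined tissue of 1 male and 1 female mouse, so no group has a replicate and no p-value is given. Adult mice of 7 to 21 weeks are the default age in the study's methods. Among controls of its knockout strains, the study's methods name tamoxifen-induced littermates that lacked Cre or were heterozygous for the floxed allele. Whether the Ctrl mice of these libraries received tamoxifen or a control antibody is not stated. Ctrl and cKO can therefore differ by more than the floxed gene.

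TGFβ ligands bind the type II receptor, which then recruits and phosphorylates a type I receptor, and the type I receptor phosphorylates Smad transcription factors. With Tgfbr1 the signal runs mainly through Smad2 and Smad3 and drives collagen and contractile genes in fibroblasts, while Acvrl1 acts mainly in endothelium and signals through Smad1 and Smad5. Tgfbr3 presents ligand, above all TGFβ2, to Tgfbr2 and can be shed as a soluble trap, and Eng serves BMP9 signalling by Acvrl1 on endothelial cells. In the brain, microglia depend on TGFβ for their adult identity, and integrin αvβ8 releases active TGFβ from its latent form.

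Floxed Tgfbr2 alleles of both an exon 2 and an exon 4 design are named in the study's methods, and which of them these mice carried is not stated. Exon 2 and its joints are shown because a recombined allele is recognised by the sequence that remains, not by the number of transcripts. On the transcript Tgfbr2-201 (GENCODE M21), exon 2 spans chr9:116131545-116131713 on the minus strand, is coding throughout and has 169 bases, which leaves a remainder of 1 when divided by 3. Exon 4 spans chr9:116109504-116110303 and has 800 bases, with a remainder of 2. The first line below has exon 2 in capitals between the last bases of exon 1 and the first of exon 3, and in the shorter lines the capitals mark the downstream exon at each joint.
Exon 1, exon 2, exon 3: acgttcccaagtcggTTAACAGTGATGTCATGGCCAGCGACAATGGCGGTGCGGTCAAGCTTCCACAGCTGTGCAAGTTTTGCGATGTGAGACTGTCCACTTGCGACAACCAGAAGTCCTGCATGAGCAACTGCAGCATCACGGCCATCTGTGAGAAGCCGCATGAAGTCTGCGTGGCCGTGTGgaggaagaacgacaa
Exon 1 joined to exon 3: acgttcccaagtcggGAGGAAGAACGACAA
Exon 3 joined to exon 4: tcatcttttcggaagAATACACCACCAGCA
Exon 3 joined to exon 5: tcatcttttcggaagGTGGGAACGGCAAGA
The libraries were made with a 3′ kit from nuclear RNA, and each UMI (a tagged RNA molecule) was counted for the gene as a whole. Exon 7, the last, spans chr9:116088929-116090557. The Tgfbr2 values below hence count transcripts with or without the floxed exon alike and check nothing about the deletion.

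The 6 libraries held 67360 barcodes, 7205 to 14246 each, with 64798965 to 140310354 UMIs and a median of 4601.5 to 8222.5 UMIs per barcode, and 56490 nuclei were used. Pairs of libraries shared 21 to 61 barcodes. Levels are given as CPM, the gene's share of the non-mitochondrial UMIs summed over a cell class in a library, in parts per 1000000, with 95% intervals that cover counting error only. Classes were named from marker lists, and arachnoid-like and osteoblast-like clusters were kept apart from fibroblasts. The cKO library at 7 dpi stood apart, since neurons made up 56.7% of its nuclei (5944), against 12.9% in cKO at 21 dpi and at most 1.96% in the other libraries. Fibroblasts numbered 1752 (Ctrl), 1899 (ADWA11) and 277 (cKO) at 7 dpi and 2748, 1976 and 446 at 21 dpi. Fibroblast sub-clusters of 4170 and 178 nuclei over all libraries had been left out of these as mixed with other classes. Of the 4791 mixed nuclei left out over all classes, 2669 were in Ctrl at 21 dpi. Over all nuclei together, Tgfbr2 measured 368 CPM (Ctrl), 288 CPM (ADWA11) and 50.7 CPM (cKO) at 7 dpi, then 233, 304 and 162 CPM at 21 dpi, values that mix the classes and are not read further. Fewer cells of a class and less RNA per cell cannot be told apart in such sums.

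Each receptor had its own order of classes. For Tgfbr2 the highest median level over libraries was in myeloid nuclei, with 399 CPM (363 to 483), followed by T and NK cells with 391 CPM, endothelial nuclei with 352 CPM and fibroblasts with 237 CPM. Myeloid, T and NK and endothelial nuclei overlapped in range, and the class in first place changed between libraries, whereas fibroblasts (189 to 322 CPM) lay below the myeloid range. For Tgfbr1 myeloid nuclei led in all 6 libraries, with a median of 1057 CPM (406 to 1213), against 257 CPM in arachnoid-like nuclei and 198 CPM in fibroblasts, neighbours whose ranges overlapped. For Tgfbr3 the order differed between conditions. In both Ctrl libraries it ran from arachnoid-like nuclei (636 and 561 CPM) over endothelial nuclei (486 and 436 CPM) to fibroblasts (321 and 303 CPM), with ADWA11 arachnoid-like nuclei came first and fibroblasts next, with overlapping intervals at 21 dpi, and in cKO fibroblasts came first, at 7 dpi with too few arachnoid-like and endothelial nuclei to compare. Its median was lowest in myeloid nuclei (6.94 CPM). Eng and Acvrl1 were highest in endothelial nuclei in the 5 libraries with enough of them, with medians of 599 and 187 CPM, and mural nuclei came next in median with 109 and 37.2 CPM. The mural class was not clean, because its sub-cluster of 304 nuclei had the endothelial genes Adgrl4, Cyyr1 and Mecom and cell cycle genes among its 10 leading genes, and the summed endothelial markers in the class reached 672 to 1223 CPM. In neurons the medians of Tgfbr2, Eng and Acvrl1 were 17.4, 2.31 and 3.03 CPM.

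**Figure D1:**
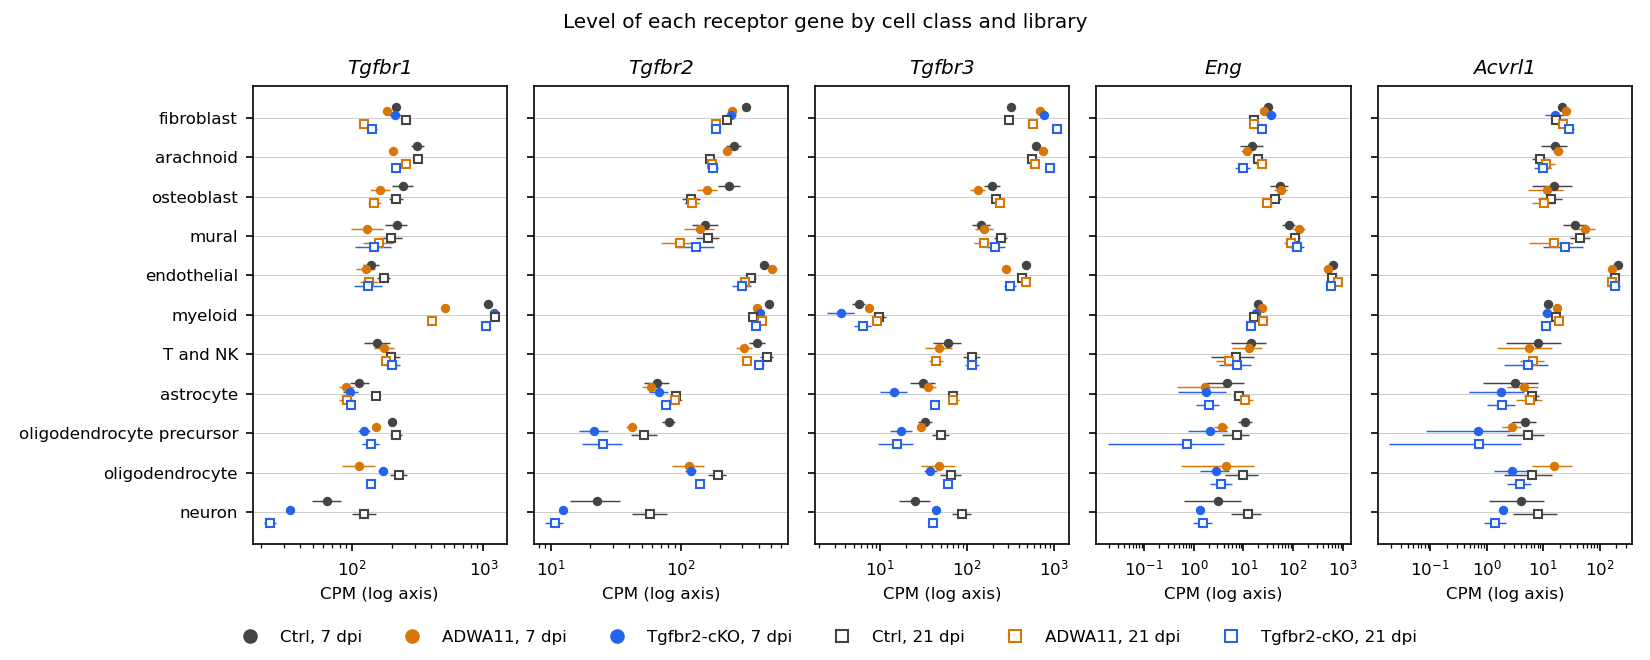
Level of each receptor gene in CPM (log axis) for each cell class with at least 50 nuclei in a library, with 1 point per library coloured by condition and shaped by time. Tgfbr1 was highest in myeloid nuclei and Eng and Acvrl1 in endothelial nuclei where these reached 50, Tgfbr3 was highest in arachnoid-like nuclei in Ctrl and with ADWA11 and in fibroblasts in cKO, while Tgfbr2 was spread over myeloid, T and NK, endothelial and fibroblast nuclei; levels of 0 are not drawn.

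Tgfbr2 in fibroblasts was lower in every treated library than in its Ctrl, by less than 1.5-fold. It measured 322 CPM in Ctrl, 251 CPM with ADWA11 and 244 CPM in cKO at 7 dpi, then 230, 189 and 189 CPM at 21 dpi. The log2 ratio of cKO to Ctrl was -0.40 (95% interval -0.54 to -0.26) at 7 dpi and -0.28 (-0.39 to -0.17) at 21 dpi. With ADWA11, where the gene is not floxed, the ratios were -0.36 (-0.42 to -0.30) and -0.29 (-0.35 to -0.22). The difference between the Ctrl libraries was of the same order, -0.48 (-0.54 to -0.43) for 21 against 7 dpi. A ratio was counted as changed, here and below, when it was at least 1.5-fold either way with an interval that left out 0, and none of these 5 was.

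Nuclei of the male and female mouse can be told apart by sex-linked RNA, which gives a value for each mouse as far as those calls are right. In Ctrl fibroblasts Tgfbr2 measured 330 CPM in the female and 327 CPM in the male at 7 dpi, and 232 and 228 CPM at 21 dpi. In cKO fibroblasts it measured 259 and 231 CPM at 7 dpi and 211 and 172 CPM at 21 dpi. Both cKO mice were below both Ctrl mice at each time. The mice of these libraries were apart in one direction or the other for 49.3% of all tested genes at 7 dpi and 59.9% at 21 dpi, so such a gap is common and not particular to Tgfbr2. The ADWA11 mice lay in the same range as the cKO mice, with 243 and 252 CPM at 7 dpi.

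The Tgfbr2 ratio of cKO to Ctrl varied between fibroblast sub-clusters, and this variation was not tested. The intervals of myofibroblast-like and leptomeningeal-like nuclei overlapped at 7 dpi. Myofibroblast-like nuclei, named after the contractile matrix-producing state of the early lesion, had 337 CPM of Tgfbr2 in Ctrl, 260 CPM with ADWA11 and 244 CPM in cKO at 7 dpi, a cKO ratio of -0.46 (-0.66 to -0.27). Their name rests on 5 raised markers, and no listed marker was among the 10 leading genes. In the log-normalised clustering a sub-cluster led by Spock3 and Col25a1, also with 5 of these markers raised, stayed unnamed. Leptomeningeal-like nuclei had 266, 235 and 258 CPM at 7 dpi and 217, 149 and 240 CPM at 21 dpi, and their cKO ratios of -0.05 (-0.29 to 0.18) and 0.15 (-0.16 to 0.45) both held 0. In sub-cluster 1, led by A830036E02Rik and Prg4 and left unnamed, Tgfbr2 measured 223, 189 and 244 CPM at 21 dpi, a cKO ratio of 0.13 (-0.21 to 0.46). Sub-cluster 6, led by Gabrg3 and Ebf3, held 71.1% of the cKO fibroblasts at 21 dpi and no Ctrl nucleus, and its level was 174 CPM. The cKO fibroblast values at 21 dpi thus rest mostly on a sub-cluster without a Ctrl counterpart, and Kcnip4 and Lingo2, known from neurons, were among its 10 leading genes. Neuron markers summed over all fibroblasts were at 7.43 CPM (Ctrl), 6.51 CPM (ADWA11) and 166 CPM (cKO) at 7 dpi, then 5.40, 1.95 and 54.1 CPM at 21 dpi, and their part in the cKO values was not tested. Weighted to the sub-cluster mix of Ctrl, the cKO ratio for Tgfbr2 stayed negative at 7 dpi (-0.35) and became 0.14 at 21 dpi, where the sub-clusters shared by both libraries covered 44.7% of Ctrl and 21.2% of cKO fibroblast UMIs. With the nuclei filter set over all libraries and the nuclei clustered and named again, the cKO ratio at 21 dpi was 0.13, on 93 cKO fibroblasts.

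**Figure D2:**
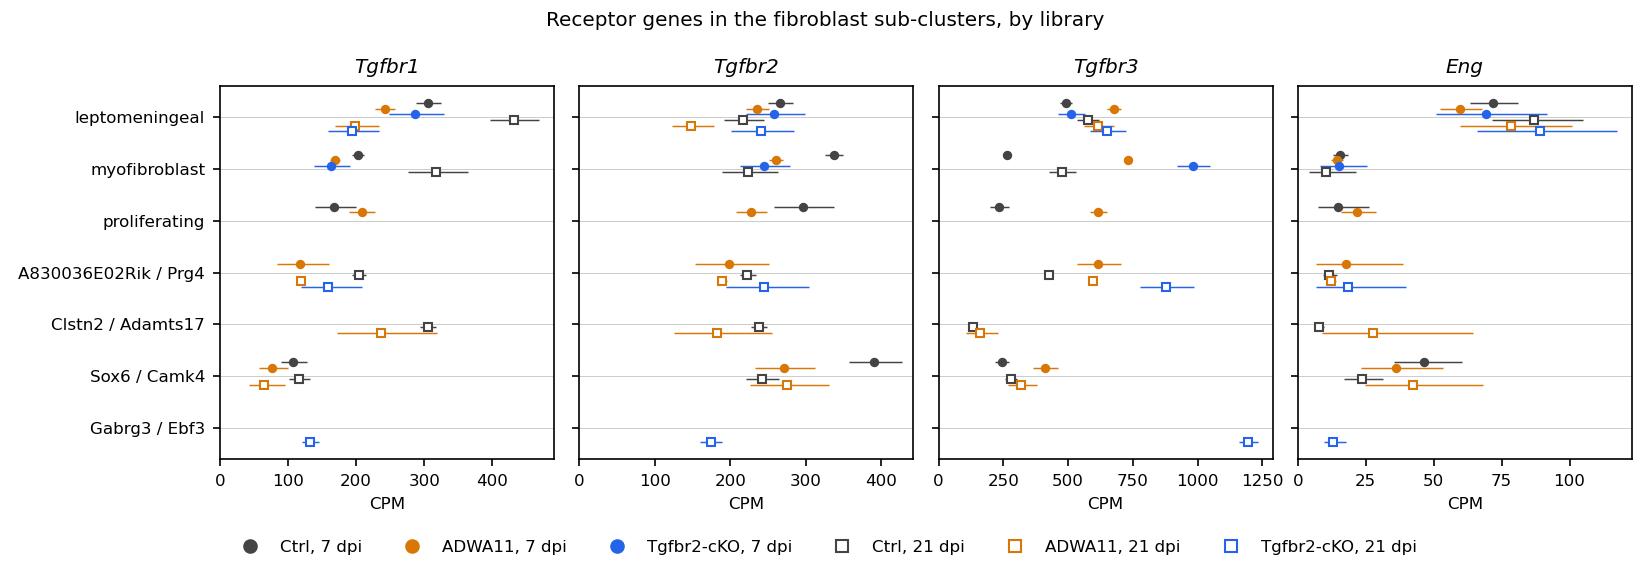
CPM of Tgfbr1, Tgfbr2, Tgfbr3 and Eng in fibroblast sub-clusters with at least 20 nuclei in a library, 1 point per library with its 95% counting interval. Tgfbr2 lay between 149 and 391 CPM with no sub-cluster near 0 in cKO, Tgfbr3 reached 1195 CPM in sub-cluster 6 of cKO at 21 dpi, and Eng was highest in leptomeningeal-like nuclei.

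Shares of nuclei gave the same order at 7 dpi. After each fibroblast was thinned to 1500 UMIs, Tgfbr2 was detected in 35.5% of Ctrl, 28.9% of ADWA11 and 28.4% of cKO nuclei at 7 dpi and in 26.8%, 23.7% and 25.2% at 21 dpi. Thinned to 1000 UMIs, cKO was lowest at both times, with values given further below. Without thinning the shares were 80.0%, 77.7% and 61.4% and then 66.8%, 68.3% and 65.7%. In cKO neurons, a class with little Tgfbr2, the thinned shares were 1.73% and 2.60%, far below those in cKO fibroblasts.

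A Cre driven by Col1a2 acts in cells that use this promoter, and Tgfbr2 outside them is not targeted. In Ctrl libraries Col1a2 was highest in osteoblast-like nuclei (6061 and 10837 CPM at 7 and 21 dpi), then in fibroblasts (3207 and 3853 CPM) and arachnoid-like nuclei at 7 dpi (865 CPM), and mural nuclei carried 770 and 1188 CPM. Fibroblasts had less Col1a2 in the treated libraries, at 2361 and 2584 CPM with ADWA11 and 1191 and 605 CPM in cKO. Its relation to their Tgfbr2 was not tested. Myeloid nuclei, which do not make this collagen, carried 189 and 367 CPM of it in Ctrl but 7.61 and 10.6 CPM in cKO. T and NK, neural and endothelial classes of Ctrl at 21 dpi carried 410 to 571 CPM. Mural nuclei had 217 CPM in cKO at 21 dpi. Fibroblast RNA in nuclei of other classes thus differed between these libraries, and its part in the ratios below was not tested.

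Tgfbr2 in myeloid nuclei measured 483 CPM (Ctrl), 388 CPM (ADWA11) and 411 CPM (cKO) at 7 dpi, then 363, 428 and 385 CPM at 21 dpi. The cKO ratios were -0.23 (-0.29 to -0.18) and 0.08 (0.03 to 0.14), so the direction was not the same at both times. The sub-cluster mix of myeloid nuclei differed between these libraries, as given below for Tgfbr1, and its part in the Tgfbr2 ratios was not tested. In endothelial nuclei the level at 21 dpi was 352 CPM in Ctrl and 296 CPM in cKO, a ratio of -0.25 (-0.52 to 0.01), and in arachnoid-like nuclei it was 170 and 179 CPM, a ratio of 0.08 (-0.08 to 0.23). T and NK cells had 461 and 403 CPM and astrocytes 92.6 and 76.8 CPM at that time. Across the classes other than fibroblasts with at least 50 nuclei in both libraries, the Tgfbr2 interval lay below 0 in 3 of 4 at 7 dpi and in 4 of 9 at 21 dpi, and above 0 in 0 and 1. Those at 21 dpi include arachnoid-like and mural nuclei, which also carried Col1a2. No share over all genes is given for this rule, and nothing is read from these counts.

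The lowest Tgfbr2 ratios of cKO to Ctrl among the classes compared lay in neural classes with low levels, not in fibroblasts. Oligodendrocyte precursors had 80.8 CPM in Ctrl and 21.5 CPM in cKO at 7 dpi, a log2 ratio of -1.91 (-2.34 to -1.51), and -1.07 at 21 dpi. Neurons had 22.4 and 12.4 CPM at 7 dpi and 57.8 and 10.6 CPM at 21 dpi, ratios of -0.86 and -2.44. In the same nuclei the summed markers of fibroblasts were lower in cKO too, with 1024 CPM (Ctrl) and 471 CPM (cKO) in precursors and 446 and 22.9 CPM in neurons at 7 dpi, and 1220 and 28.3 CPM in neurons at 21 dpi. Myeloid markers, summed, were at 377 and 213 CPM in precursors and 299 and 79.4 CPM in neurons at 7 dpi. Ctrl neurons at 21 dpi were shallow besides, with a median of 1420.5 UMIs against 19349 in cKO. The part of these markers and of depth in the Tgfbr2 ratios was not tested.

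**Figure D3:**
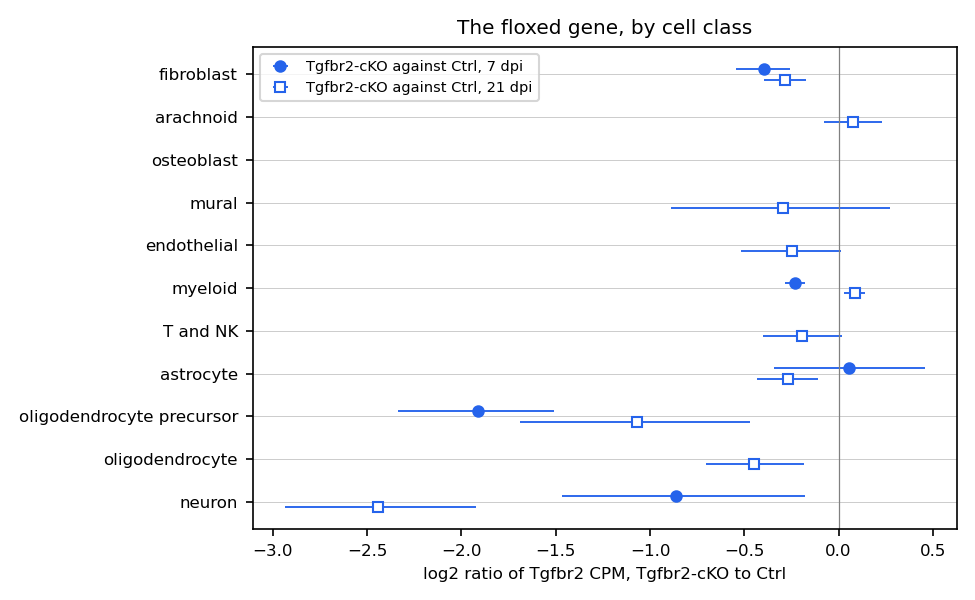
Log2 ratio of Tgfbr2 CPM, cKO to Ctrl, for each class with at least 50 nuclei in both libraries, at 7 and 21 dpi, with bars for the 95% counting interval. Fibroblasts lay at -0.40 and -0.28, and neurons and oligodendrocyte precursors lay lowest, at -2.44 and -1.91.

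Tgfbr1 was mainly a transcript of myeloid nuclei, which held 58.5% to 79.1% of its UMIs in each library. In these nuclei it measured 1077 CPM in Ctrl, 512 CPM with ADWA11 and 1198 CPM in cKO at 7 dpi, then 1213, 406 and 1036 CPM at 21 dpi. Both ADWA11 libraries were low and the other 4 lay between 1036 and 1213 CPM. The log2 ratio of ADWA11 to Ctrl was -1.07 (-1.10 to -1.05) at 7 dpi and -1.58 (-1.61 to -1.55) at 21 dpi. That of cKO was 0.15 and -0.23. By mouse, female and male ADWA11 nuclei had 483 and 547 CPM at 7 dpi and 408 and 404 CPM at 21 dpi, whereas the lowest of the Ctrl and cKO mice had 887 CPM. In myeloid nuclei the ADWA11 and Ctrl mice were apart for 63.0% of all tested genes at 7 dpi and 61.6% at 21 dpi. After thinning to 1500 UMIs, Tgfbr1 was detected in 69.9% (Ctrl), 45.4% (ADWA11) and 71.9% (cKO) of myeloid nuclei at 7 dpi and in 72.0%, 40.7% and 67.8% at 21 dpi, against 90.4%, 81.2%, 87.7%, 86.6%, 73.7% and 90.1% without thinning.

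ADWA11 and cKO myeloid nuclei were also of another make-up than those of Ctrl. In sub-clusters 1 and 5 microglial markers were raised, but of the 10 leading genes of sub-cluster 1 Siglech is microglial and Nrg3, Kcnip4 and Dlg2 are known from neurons, so both are given by number. They held 12.8% and 26.3% of Ctrl myeloid nuclei at 7 dpi and 38.5% and 0.951% at 21 dpi, and at most 1.01% each with ADWA11, where sub-cluster 3 (led by Hpgd and Dlc1) held 44.6% at 7 dpi and sub-cluster 2 (led by Ciita and Tenm4) held 65.7% at 21 dpi. Of the 4844 nuclei of sub-cluster 1 over all libraries, most were from cKO. Tgfbr1 differed between these states within a library. In Ctrl at 21 dpi it measured 1417 and 1282 CPM in sub-clusters 1 and 5, 873 CPM in sub-cluster 2, 539 CPM in sub-cluster 3 and 353 CPM in border macrophage-like nuclei, and in Ctrl at 7 dpi 1082 and 1100 CPM in sub-clusters 1 and 5 and 758 CPM in sub-cluster 3. It was lower with ADWA11 within sub-clusters too. The interval lay below 0 in 5 of 6 sub-clusters at 7 dpi (ratios of -0.95 to -0.09) and in 8 of 8 at 21 dpi (-1.23 to -0.66). With the levels weighted to the Ctrl mix, the ratios were -0.84 at 7 dpi, over sub-clusters with 73.5% of Ctrl myeloid UMIs, and -0.87 at 21 dpi, over 99.0%. For cKO the weighted ratios were -0.04 at 7 dpi, over 71.6%, and -0.32 at 21 dpi, over 91.9%. Within sub-clusters the cKO interval lay below 0 in 2 of 5 and above 0 in 1 at 7 dpi. At 21 dpi it lay below 0 in 2 of 6 and above 0 in 3. In sub-cluster 0, led by Dach1 and Ldlrad3, for example, Tgfbr1 measured 1099, 610 and 1003 CPM at 7 dpi and 1294, 552 and 814 CPM at 21 dpi for Ctrl, ADWA11 and cKO. A small group of 32 nuclei with Ctsk, Itgb3 and Mmp9 among its leading genes had the highest level of any myeloid sub-cluster, 3160 CPM, and also 1321 CPM of Tgfbr2. Fibroblast markers summed in myeloid nuclei were 528, 305 and 44.4 CPM at 7 dpi and 857, 460 and 54.4 CPM at 21 dpi, and their part in the Tgfbr1 levels was not tested.

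In fibroblasts Tgfbr1 was also lower at 21 dpi, and there in both treated libraries. It measured 217 CPM (Ctrl), 184 CPM (ADWA11) and 212 CPM (cKO) at 7 dpi, then 256, 124 and 142 CPM at 21 dpi. The ratios at 21 dpi were -1.04 (-1.12 to -0.97) with ADWA11 and -0.85 (-0.97 to -0.72) in cKO, while at 7 dpi they were -0.24 and -0.03 (-0.19 to 0.12). Leptomeningeal-like nuclei, a state present in all 6 libraries, showed the same within themselves, with 306, 242 and 286 CPM at 7 dpi and 431, 199 and 194 CPM at 21 dpi, ratios at 21 dpi of -1.11 and -1.15. In sub-cluster 1 the levels at 21 dpi were 204, 120 and 159 CPM. Weighted to the Ctrl mix of sub-clusters the ratios at 21 dpi were -0.58 with ADWA11 and -0.53 in cKO, both under 1.5-fold. With the nuclei filter set over all libraries and the nuclei clustered again, the cKO ratio was -0.43. Arachnoid-like nuclei had 313 and 205 CPM in Ctrl and ADWA11 at 7 dpi, a ratio of -0.61, and 318, 257 and 215 CPM at 21 dpi.

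Acvrl1 was low outside the endothelium. Endothelial nuclei had 210 CPM (Ctrl) and 169 CPM (ADWA11) at 7 dpi and 188, 169 and 187 CPM at 21 dpi, with cKO at 7 dpi left out for its 33 nuclei. In Ctrl at 21 dpi, the library with most endothelial nuclei, arterial-like nuclei had 287 CPM and capillary-like nuclei 190.5 CPM. Nuclei of an unnamed sub-cluster led by Chrm2 and Cd300lg had 147 CPM. In fibroblasts it measured 21.4, 25.7 and 16.1 CPM at 7 dpi and 17.2, 22.3 and 29.1 CPM at 21 dpi, and the last value gave a cKO ratio of 0.76 (0.45 to 1.06). Endothelial markers summed in fibroblasts were at 75.4 CPM in Ctrl and 147 CPM in cKO at 21 dpi, and their part in the Acvrl1 ratio was not tested. That ratio turned to -0.72 with the nuclei filter set over all libraries at once and the nuclei clustered and named again. The ADWA11 ratio at 21 dpi, 0.37 (0.15 to 0.59), moved as well, to 0.95 at the Ctrl mix of sub-clusters and -0.95 with only named sub-clusters kept. T and NK cells of Ctrl at 21 dpi had 0 UMIs of Acvrl1.

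Tgfbr3, the co-receptor, was higher in fibroblasts of all 4 treated libraries than in Ctrl, and its ratio was the farthest from 0 among the receptor genes in 3 of these comparisons, with Tgfbr1 farther at 21 dpi with ADWA11. It measured 321 CPM (312 to 330) in Ctrl, 693 CPM (682 to 705) with ADWA11 and 783 CPM (742 to 824) in cKO at 7 dpi. At 21 dpi it measured 303, 587 and 1092 CPM. The Ctrl libraries were the lowest at both times and close to each other, with a ratio of -0.08 between them, which came to 0.70 with only named sub-clusters kept. The log2 ratios to Ctrl were 1.11 (1.06 to 1.16) and 0.95 (0.91 to 1.00) with ADWA11 and 1.29 (1.20 to 1.37) and 1.85 (1.79 to 1.90) in cKO. By mouse, female and male Ctrl nuclei had 331 and 313 CPM at 7 dpi and 335 and 268 CPM at 21 dpi, ADWA11 nuclei had 721 and 654 CPM and then 489 and 650 CPM, and cKO nuclei had 778 and 714 CPM and then 1025 and 1126 CPM. Every treated mouse was above every Ctrl mouse, and with ADWA11 too the mice of both libraries were apart for 56.9% of all tested genes at 7 dpi and 55.1% at 21 dpi. Thinned to 1500 UMIs, 34.4%, 58.9% and 58.3% of fibroblasts held Tgfbr3 at 7 dpi and 33.2%, 52.5% and 72.3% at 21 dpi, and unthinned 69.5%, 93.2%, 85.6%, 67.4%, 89.0% and 95.1%. In thinned myeloid nuclei, the class with the lowest median level in these data, the shares were 0.683% to 1.43%.

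**Figure D4:**
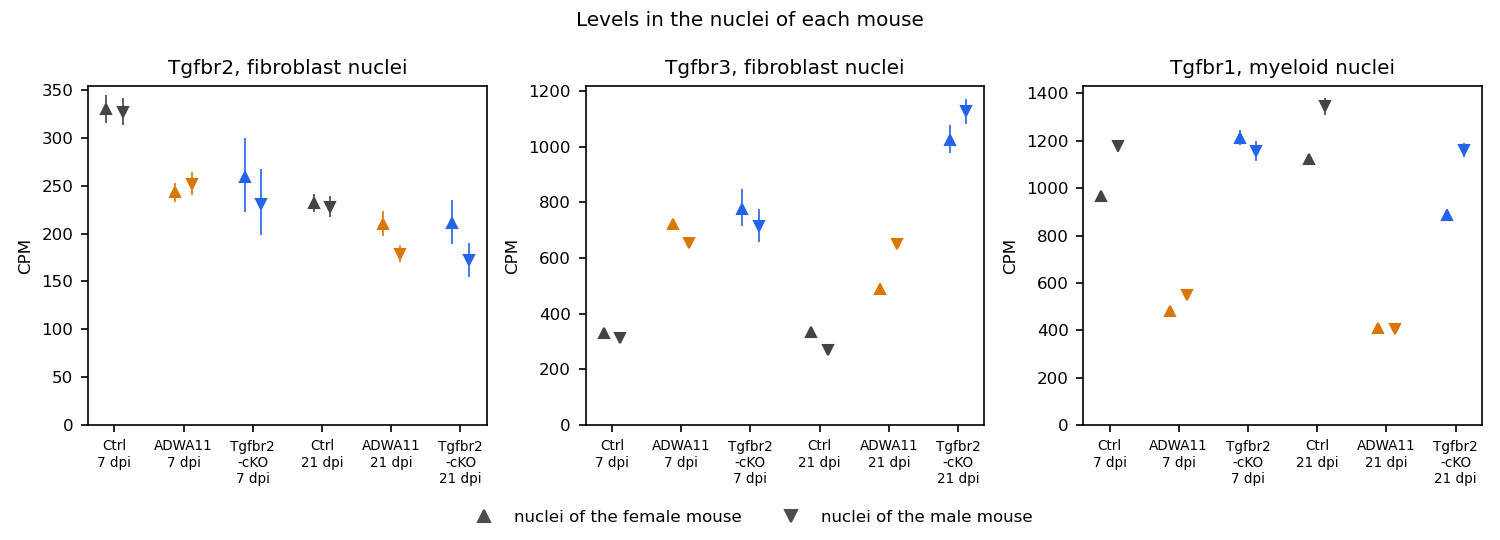
CPM in nuclei of the female (triangle up) and the male mouse (triangle down) of each library, with bars for the 95% counting interval, for Tgfbr2 and Tgfbr3 in fibroblasts and Tgfbr1 in myeloid nuclei. Tgfbr3 lay at 268 to 335 CPM in the Ctrl mice and at 489 to 1126 CPM in the treated mice, and Tgfbr1 in myeloid nuclei lay at 404 to 547 CPM in the ADWA11 mice and from 887 CPM up in the others.

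At 7 dpi the Tgfbr3 ratios differed in size between fibroblast states. Myofibroblast-like nuclei had 264 CPM in Ctrl, 731 CPM with ADWA11 and 982 CPM in cKO, ratios of 1.47 and 1.90 (1.78 to 2.01), and proliferating fibroblasts had 233 CPM in Ctrl and 615 CPM with ADWA11, a ratio of 1.40 (1.17 to 1.64). Leptomeningeal-like nuclei of the same libraries had 492, 677 and 511 CPM, with a ratio of 0.46 (0.37 to 0.55) with ADWA11, under 1.5-fold, and of 0.05 (-0.11 to 0.22) in cKO. In Ctrl the myofibroblast-like state was therefore lower than the leptomeningeal-like one, and in both treated libraries it was higher. Weighted to the Ctrl mix the ratios at 7 dpi were 1.11 and 1.37.

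At 21 dpi the Tgfbr3 difference came with a change of sub-clusters. Ctrl fibroblasts lay 38.8% in sub-cluster 1 and 37.7% in sub-cluster 4 (led by Clstn2 and Adamts17), whose Tgfbr3 levels were 427 and 134 CPM. ADWA11 fibroblasts lay 88.1% in sub-cluster 1, with 597 CPM, and 71.1% of cKO fibroblasts lay in sub-cluster 6, with 1195 CPM. Within sub-cluster 1 the ratios were 0.48 (0.42 to 0.54) with ADWA11 and 1.04 (0.86 to 1.21) in cKO, and within leptomeningeal-like nuclei, at 575, 617 and 652 CPM, they were 0.10 (-0.07 to 0.27) and 0.18 (-0.01 to 0.36). Weighted to the Ctrl mix, the ratio was 0.37 with ADWA11, over sub-clusters with 95.5% of Ctrl fibroblast UMIs, and 0.91 in cKO, over 44.7%. With only named sub-clusters kept, it came to 0.17 and 0.27. In female nuclei alone the ADWA11 ratio was 0.55, under 1.5-fold, and in male nuclei 1.28. The summed fibroblast markers of the class were lower in the treated libraries, at 5928 and 2224 CPM against 8358 CPM, and their relation to Tgfbr3 was not tested. Unnamed nuclei, which are in no class here, made up 10.6% (Ctrl), 10.5% (ADWA11) and 5.58% (cKO) of nuclei at 21 dpi. They include a cluster of 1562 nuclei over all libraries, led by Slc47a1 and Slc47a2, with fibroblast and arachnoid markers raised. What the Tgfbr3 ratios would be with these nuclei was not tested.

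Other classes with Tgfbr3 did not all follow the fibroblasts. Arachnoid-like nuclei had 636 CPM in Ctrl and 761 CPM with ADWA11 at 7 dpi and 561, 613 and 915 CPM at 21 dpi, a cKO ratio of 0.71 (0.63 to 0.78). Endothelial nuclei had 486 CPM in Ctrl and 283 CPM with ADWA11 at 7 dpi, a ratio of -0.78 (-0.97 to -0.59), and 436, 482 and 317 CPM at 21 dpi. Capillary-like nuclei, where the endothelial level was highest, had 793 CPM in Ctrl and 403 CPM with ADWA11 at 7 dpi, and they made up 47.0% and 28.7% of the endothelial nuclei while proliferating ones made up 21.8% and 44.0%. Myeloid nuclei had 3.57 to 9.87 CPM in the 6 libraries, and their cKO ratios of -0.67 and -0.63 came with lower fibroblast markers in the same nuclei, as given above for Tgfbr1.

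Eng, a co-receptor known for its part in vessel growth, was highest in endothelial nuclei. It measured 630 CPM (Ctrl) and 504 CPM (ADWA11) at 7 dpi and 599, 790 and 573 CPM at 21 dpi. None of the ratios reached 1.5-fold, with -0.32 and 0.40 with ADWA11 and -0.06 in cKO at 21 dpi. Thinned shares of endothelial nuclei with Eng were 51.0% and 47.7% at 7 dpi and 55.1%, 60.0% and 56.6% at 21 dpi, and without thinning 86.1%, 85.3%, 76.8%, 81.6% and 81.1%. Of sub-clusters with at least 20 nuclei in all 4 Ctrl and ADWA11 libraries, the one led by Chrm2 and Cd300lg had the most Eng. It had 997 and 784 CPM at 7 dpi and 910 and 1093 CPM at 21 dpi, and was left unnamed. Over all libraries together, pericyte-like nuclei carried 127 CPM on 45 UMIs and smooth muscle-like nuclei 42.3 CPM on 16.

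Among fibroblasts Eng was a feature of the leptomeningeal-like state. Leptomeningeal-like nuclei had 71.8, 59.7 and 69.1 CPM at 7 dpi and 87.0, 78.3 and 89.0 CPM at 21 dpi, and the other fibroblast sub-clusters had 7.93 to 34.0 CPM over all libraries. In the class as a whole it measured 31.5, 25.4 and 35.0 CPM at 7 dpi and 16.0, 16.2 and 23.6 CPM at 21 dpi. The ratios at 21 dpi moved with the processing. In cKO the ratio of 0.56 came to 2.02 with the nuclei filter set over all libraries and new clustering. With arachnoid-like and osteoblast-like nuclei it was -0.07. The ADWA11 ratio of 0.01 came to 0.84 with that filter and clustering and to 0.70 at the Ctrl mix. The ratio of Ctrl at 21 to 7 dpi was -0.97 (-1.18 to -0.76), and leptomeningeal-like nuclei made up 27.2% of Ctrl fibroblasts at 7 dpi and 8.22% at 21 dpi. With only named sub-clusters kept, that ratio was 0.89.

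Counted together, 1 of the 5 receptor genes was changed in fibroblasts in cKO at 7 dpi, where 16.1% of all tested genes were. With ADWA11 at 7 dpi it was also 1 of 5 (17.9% of all genes), at 21 dpi 3 of 5 in cKO (27.2%) and 2 of 5 with ADWA11 (16.9%), and between the Ctrl libraries 1 of 5 (30.6%). Those changed were Tgfbr3 in all 4 comparisons with Ctrl, Tgfbr1 in both at 21 dpi, Acvrl1 in cKO at 21 dpi and Eng between the Ctrl libraries. In myeloid nuclei 1 of 5 was changed in each comparison, Tgfbr1 with ADWA11 and Tgfbr3 otherwise, against 23.1% of genes in cKO and 22.0% with ADWA11 at 7 dpi, 18.8% and 23.9% at 21 dpi and 24.3% between the Ctrl libraries. The Tgfbr3 calls in myeloid nuclei rest on 31 to 138 UMIs a library and fell under 1.5-fold under some alternatives, to -0.38 in cKO at 7 dpi (mean CPM per nucleus), -0.19 in cKO at 21 dpi (male nuclei) and 0.49 between the Ctrl libraries (male nuclei). In endothelial nuclei it was 1 of 5, Tgfbr3, with ADWA11 at 7 dpi (13.9% of genes) and 0 of 5 at 21 dpi in cKO (14.6%), with ADWA11 (12.8%) and between the Ctrl libraries (20.7%). In fibroblasts at 21 dpi the counts were larger shares than those over all genes, and with a 2-fold limit they were 1 of 5 in cKO (16.7% of all genes), 1 of 5 with ADWA11 (9.02%) and 0 of 5 between the Ctrl libraries (18.4%). In the other comparisons the counts were 0 or 1, and nothing is read from them. The comparisons at a time share their Ctrl library. The median ratio of the 5 genes in fibroblasts was -0.03 in cKO and -0.24 with ADWA11 at 7 dpi, and 0.56 and 0.01 at 21 dpi, beside medians over all genes of 0.09, 0.09, -0.01 and 0.01.

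**Figure D5:**
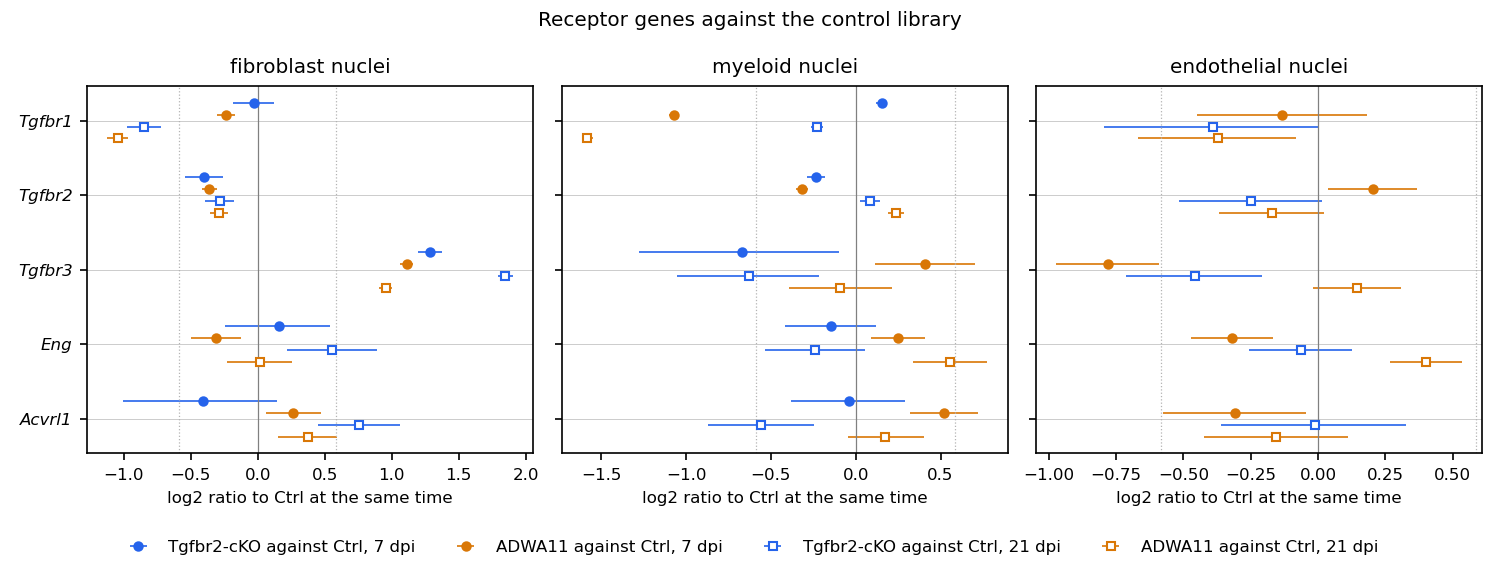
Log2 ratio of CPM to Ctrl at the same time for the receptor genes in fibroblast, myeloid and endothelial nuclei, with 95% counting intervals and dotted lines at 1.5-fold. Tgfbr3 in fibroblasts lay above 1.5-fold in all 4 comparisons (0.95 to 1.85) and Tgfbr1 in myeloid nuclei lay below it only with ADWA11 (-1.07 and -1.58).

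Other genes of the pathway, a list of 36 that holds ligands, other type I and type II receptors, membrane modulators, Smads and receptor adaptors, were spread in both directions in fibroblasts. In cKO at 7 dpi 3 were higher and 3 lower of 31 tested (16.1% of all genes were changed), with a median log2 ratio of -0.0049, and at 21 dpi 7 were higher and 4 lower of 32 (27.2% of all genes). With ADWA11 1 was higher and 4 were lower of 32 at 7 dpi (17.9%), and 2 and 2 of 33 at 21 dpi (16.9%). Of the 8 Smads none was changed at 7 dpi in either comparison, and at 21 dpi 2 were higher in cKO and 1 with ADWA11. In myeloid nuclei with ADWA11, 8 of 30 were lower and 0 higher at 7 dpi, where 9.47% of all genes were lower, and 13 of 31 lower and 0 higher at 21 dpi, where 15.8% were lower, with a median ratio of -0.58 at 21 dpi beside -0.07 over all genes. In cKO it was 3 higher and 3 lower of 31 at 7 dpi, where 23.1% of all genes were changed, and 6 lower and 0 higher of 30 at 21 dpi, where 9.36% of all genes were lower. The part of the fibroblast markers and of the sub-cluster mix given above for these nuclei was not tested.

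The pathway genes changed the same way in at least 3 of the 4 fibroblast comparisons with Ctrl were Bmpr1b, Tgfb1 and Tgfb3, all lower. The share of all genes that met this rule is not given, and nothing is read from their number. The comparisons at a time share their Ctrl library, and cKO fibroblasts at 21 dpi lay mostly in a sub-cluster without a Ctrl counterpart. Bmpr1b, a type I receptor for BMPs, measured 114 CPM (Ctrl), 57.0 CPM (ADWA11) and 70.6 CPM (cKO) at 7 dpi, then 47.2, 30.8 and 26.0 CPM at 21 dpi. The ligand Tgfb1 measured 36.5, 24.3 and 21.7 CPM at 7 dpi and 30.1, 24.8 and 16.2 CPM at 21 dpi, where the ADWA11 ratio of -0.28 was under 1.5-fold. The ligand Tgfb3 measured 56.1, 24.3 and 27.8 CPM and then 51.7, 40.5 and 16.2 CPM, with ratios of -1.21 with ADWA11 and -1.01 in cKO at 7 dpi and -0.35 and -1.67 at 21 dpi.

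Over the 55 sums of a class in a library, the genes with the pattern most like each receptor were found among 16367 genes by Pearson's r of log2(CPM + 1), as a description, since the sums share libraries and classes. Eng and Acvrl1 were each nearest to the other (r = 0.92). Next to Tgfbr2 came Casp8 (0.915), Pon2 (0.913) and Lgals9 (0.912), next to Tgfbr1 Wdr26 (0.851), Rab7 (0.849) and Mknk1 (0.847), and next to Tgfbr3 Trpm6 (0.906), Foxc1 (0.894) and Adgra2 (0.887). The others next to Eng were Tmem204 (0.907) and Adcy4 (0.896), and next to Acvrl1 Adcy4 and Abcg2 (both 0.868). Within a nucleus, Tgfbr1 and Tgfbr2 were found together in 34.6% of thinned Ctrl myeloid nuclei at 7 dpi, beside 34.0% from the product of the shares, and in 8.87% of fibroblasts beside 8.91%.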

How the data were processed

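Nuclei of PT lesions were sorted by DAPI and sequenced with a 10x 3′ v3.1 kit. The deposited matrices hold UMI counts per gene and barcode, which the authors made with Cell Ranger on mm10. The file headers name version 7.2.0 and the submitters' processing notes version 7.1.0. All 6 filtered matrices were used, and no column of values was left unmapped (0).

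The lowest and highest 2.5% of barcodes by UMIs and by genes and the highest 2.5% by mitochondrial share were removed within each library, after the study's percentile filter (61917 passed). Nuclei were clustered with SCTransform, 30 principal components and Louvain at resolution 0.5 over 3000 variable genes without the receptor and pathway genes (Seurat 5.3.0, sctransform 0.4.2, R 4.3.3), which gave 26 clusters. Fibroblast, myeloid, T and NK, endothelial and mural nuclei were clustered again at 0.2, 0.25, 0.5, 0.3 and 0.3. A cluster took the name of the marker list with most genes among its 10 leading genes, of lists with at least 3 markers found in 5% of nuclei and 2-fold raised. This rule was completed after the clusters were seen, and other clusters stayed unnamed (3345 nuclei). The highest Scrublet scores (scanpy 1.11.5, Python 3.11.15) were called doublets at 0.8% per 1000 barcodes, 6339 in all. Sub-clusters with over 50% doublets (636 nuclei) or with over 75% of the markers of another class raised (4791, of which 2669 in Ctrl at 21 dpi) were left out, and single called doublets elsewhere were kept.

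UMIs were summed per class and library as CPM, with exact Poisson 95% intervals. Log2 ratios have exact conditional binomial intervals and were computed for all genes with at least 20 UMIs in both libraries together, among classes with at least 50 nuclei in each. Intervals cover counting error only. A count of 0 has a floor of 3 counts. Shares have exact Clopper-Pearson intervals. There is no replicate library, and no test was made. The scripts were tested on simulated data.

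The receptor genes, the pathway list and the marker lists were chosen with earlier results of these data known. Pathway genes were named when changed in the same direction in at least 3 of the 4 fibroblast comparisons with Ctrl, and the 3 genes most like each receptor were named among those with at least 500 UMIs. Alternatives were TMM scaling (edgeR 4.0.16), the mean CPM per nucleus, log-normalised clustering, a filter pooled over libraries, 1 mouse of a library at a time, no nuclei under 2000 UMIs, no called doublets, without the 5 nuclei that held most UMIs of a gene, levels weighted to the sub-cluster mix of Ctrl or over named sub-clusters alone, other thinning, a 2-fold limit and no minimum of UMIs. With the pooled filter the nuclei were also clustered and named again, so its values reflect both changes. The alternatives with mixed sub-clusters, with arachnoid-like and osteoblast-like nuclei and with the myeloid mix were added after seeing the data. Coordinates and sequences came from GENCODE M21 on GRCm38, which matched 32158 features. Ages, tamoxifen and the antibody schedule are from the study's methods.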

Additional observations from a re-analysis of the deposited data

Results flagged for a closer look

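Some receptor genes moved in opposite directions at 7 and 21 dpi under the same comparison, with both counting intervals away from 0. The difference between the times was not tested in any of them, since each time has 1 library per condition.

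Tgfbr2 in myeloid nuclei had log2 ratios to Ctrl of -0.23 (7 dpi) and 0.084 (21 dpi) in cKO and of -0.32 and 0.24 with ADWA11, and the Ctrl level itself was 483 CPM at 7 dpi and 363 CPM at 21 dpi. By mouse, the cKO ratio at 21 dpi was -0.12 in female and 0.33 in male nuclei.

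Tgfbr1 in myeloid nuclei of cKO had ratios of 0.15 (7 dpi) and -0.23 (21 dpi), and the first came to 0.32 in female and -0.03 in male nuclei. At the Ctrl mix of sub-clusters these ratios were -0.04 and -0.32.

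Eng in endothelial nuclei with ADWA11 had ratios of -0.32 (7 dpi) and 0.40 (21 dpi), with -0.62 in female and -0.07 in male nuclei at 7 dpi.

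Tgfbr3 in neurons of cKO had ratios of 0.80 (7 dpi) and -1.09 (21 dpi), on levels of 25.5 and 44.3 CPM and then 87.4 and 41.0 CPM for Ctrl and cKO. The 200 Ctrl neurons at 21 dpi had a median of 1420.5 UMIs and carried 1220 CPM of fibroblast markers, and their part in the value was not tested.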

How the results depend on the processing

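Of 14 member ratios past 1.5-fold, 165 alternative values kept within 1 counting interval of the reported value in 116 cases, left it with the same sign in 46 and changed sign in 3. Of 56 ratios under 1.5-fold, 529 of 610 stayed within the interval. The cause of a move was not tested.

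Tgfbr3 in fibroblasts kept its sign in the 4 comparisons with Ctrl, while between the Ctrl libraries (-0.08) it ran from -0.33 (pooled filter) to 0.70 (named sub-clusters), with 3 of 12 values above 0. In cKO at 7 dpi it was 1.14 with TMM, 1.15 with the filter pooled over libraries, 1.19 in male nuclei and 1.17 without the 5 richest nuclei. With ADWA11 at 7 dpi it was 1.02 with TMM, 1.23 with the pooled filter, 1.06 in male nuclei, 1.04 with arachnoid-like and osteoblast-like nuclei and 1.16 with mixed sub-clusters. In cKO at 21 dpi these were 1.51 (pooled filter), 1.61 (female), 2.07 (male), 0.91 (Ctrl mix), 0.27 (named sub-clusters), 1.55 (with arachnoid-like and osteoblast-like nuclei) and 1.78 (with mixed sub-clusters). With ADWA11 at 21 dpi they were 0.85 (mean CPM per nucleus), 0.55 (pooled filter), 0.55 (female), 1.28 (male), 0.37 (Ctrl mix), 0.17 (named sub-clusters), 0.69 (with arachnoid-like and osteoblast-like nuclei) and 0.88 (with mixed sub-clusters).

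Tgfbr2 in fibroblasts stayed between -0.54 and -0.31 over 13 alternatives in cKO at 7 dpi. At 21 dpi it came to 0.13 (pooled filter), -0.13 (female), -0.41 (male), 0.14 (Ctrl mix) and 0.16 (named sub-clusters). With the pooled filter and new clustering, 93 nuclei were counted as fibroblasts in cKO and 578 with ADWA11 at that time, instead of 446 and 1976. The filter itself kept 6206 instead of 6583 nuclei in cKO and 13041 instead of 12413 with ADWA11. A cluster of 5727 nuclei led by Slc47a1 and Pde11a, with 4 fibroblast markers raised, stayed unnamed there. Tgfbr1 in myeloid nuclei with ADWA11 was -1.005 (female), -1.10 (male) and -0.84 (Ctrl mix) at 7 dpi, and -1.49 (TMM), -1.46 (female), -1.73 (male) and -0.87 (Ctrl mix) at 21 dpi. With a 2-fold limit the genes changed in fibroblasts were 1 instead of 3 in cKO (16.7% instead of 27.2% of all genes) and 1 instead of 2 with ADWA11 (9.02% instead of 16.9%) at 21 dpi, and 0 instead of 1 between the Ctrl libraries (18.4% instead of 30.6%).

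Among ratios past 1.5-fold, signs turned for Acvrl1 in cKO fibroblasts at 21 dpi, with -0.72 (pooled filter) and -0.23 (named sub-clusters) against 0.76, and for Eng between the Ctrl libraries, with 0.89 (named sub-clusters) against -0.97. Thinned to 1000 UMIs, Tgfbr2 was detected in 26.4%, 21.2% and 17.3% of fibroblasts at 7 dpi and in 19.1%, 18.2% and 14.4% at 21 dpi, for Ctrl, ADWA11 and cKO. In these shares cKO was lowest at both times, whereas with 1500 UMIs ADWA11 was lowest at 21 dpi. No paired analysis was made, since each group is 1 library. The ratios within female and within male nuclei are the nearest to a matched comparison. With 1 library per group, there is no replicate library, and values by mouse hold only as far as the calls by sex-linked RNA. The 277 fibroblasts and 33 endothelial nuclei of cKO at 7 dpi limit the precision of its values.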

Other observations

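Lymphocytes and glia carried receptor genes as well. T and NK cells had steady Tgfbr1, at 155 CPM (Ctrl) and 176 CPM (ADWA11) at 7 dpi and 196, 181 and 201 CPM (cKO) at 21 dpi, none of which was 1.5-fold from Ctrl. Their Tgfbr3 was 115 CPM in Ctrl, 44.1 CPM with ADWA11 and 116 CPM in cKO at 21 dpi, a log2 ratio of -1.38 (-1.80 to -0.96) with ADWA11 on 122 and 83 UMIs, and fibroblast markers in these nuclei summed to 1260, 778 and 65.2 CPM. The part of these markers in the Tgfbr3 levels was not tested. Astrocytes had 113, 90.3 and 96.9 CPM of Tgfbr1 at 7 dpi and 153, 90.8 and 98.0 CPM at 21 dpi, ratios at 21 dpi of -0.75 (-0.95 to -0.55) with ADWA11 and -0.64 (-0.77 to -0.50) in cKO. Myeloid markers in astrocytes summed to 315, 479 and 214 CPM at 21 dpi and fibroblast markers to 1231, 900.5 and 88.4 CPM, and their part in these ratios was not tested.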
